A study of Mus musculus with 6 samples.

Results

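The n08-PGC-3 cells are a cluster of neurons of the adult mouse olfactory bulb that the annotation names as periglomerular, and Calb1, the gene of the calcium-binding protein calbindin, is its defining marker. They were taken as the cells to which the deposited neuron annotation gives the name n08-PGC-3, and they numbered 279 of the 21746 neurons in 18 neuronal clusters, themselves part of 51426 annotated cells. The name was given from the same counts that are described here, so levels in n08-PGC-3 beside the other 17 clusters are a description and carry no test. Only the comparisons between conditions were tested, over libraries except for a chi-square test of cell shares over pooled cells.

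Periglomerular cells are small local interneurons that surround the glomeruli, the round tangles of neuropil where axons of olfactory sensory neurons meet the dendrites of mitral and tufted cells. Most of them release GABA, and they are commonly sorted into kinds that hold tyrosine hydroxylase (dopaminergic cells), calretinin or calbindin, with little overlap. New periglomerular cells are added through adult life from neural stem cells of the subventricular zone, and their survival is known to depend on odour-driven activity.

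All mice were C57BL/6NJ, 14 weeks old, with no transgene named in the labels, and each of the 6 droplet libraries held dissociated bulb tissue of pooled mice. There were 2 libraries each of controls, of mice with naris occlusion (1 nostril closed, which deprives the bulb on that side of odour) and of mice trained to tell odours apart, with both manipulations lasting 6 weeks. By the study's methods the trained mice were deprived of water and worked for a water reward. In these libraries water deprivation and reward cannot be told apart from odour training. The labels give the controls no manipulation, while the study's text names the open side of occluded mice as the control in one place and naive mice in another, so whether some controls came from occluded mice is not settled here. Mice of both sexes were used, and the labels do not give the sex of each pool. In n08-PGC-3, Xist, which is transcribed from the inactive X chromosome of females, gave 0 UMIs in each first replicate and 148, 206 and 72 in the second replicates of control, occlusion and training, while UMIs of 4 Y-linked genes were found in each first replicate and in 0 second replicates. The dissected tissue also held some olfactory epithelium.

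There were 53 and 53 n08-PGC-3 cells in the control libraries, 41 and 62 with occlusion, and 54 and 16 with training, so that trained replicate 2 stood apart with the fewest cells. Their summed counts were 100007, 91057, 78422, 95338, 85001 and 32559 UMIs (unique molecular identifiers, 1 per captured transcript) in that order, and 1 UMI was worth 10.0 to 12.8 CPM (counts per 1000000 of that library's n08-PGC-3 UMIs) in 5 libraries and 30.7 CPM in trained replicate 2. The median cell held 1704 UMIs and 1089 genes, 6th highest of the 18 clusters by UMIs. In the earlier clustering of the whole bulb, 247 of the 279 cells lay in cluster N12 and 27, of a median of 714 UMIs, in N9. The barcodes of 13 of the cells also occurred in another library, in no case as an n08-PGC-3 cell, and the 70 cells of the trained libraries carried the other trained library's name at the start of their cell name, where the annotation's library column was used. Astrocyte markers, near the median of 4079 CPM of the other clusters, summed to 3766 to 4620 CPM in 5 libraries and to 1321 in trained replicate 2.

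Calb1, the marker of these cells, was at 809 ± 203 CPM (SD, n = 6 libraries) in n08-PGC-3, at 58.9 ± 54.1 in n10-GC-4, at 25.3 ± 17.3 in n05-PGC-2 and at 22.9 ± 29.6 in n18-EPL-IN, and the last 3 overlapped in their spread. By library Calb1 was at 849.9 and 889.6 CPM in controls, 638 and 986 with occlusion, and 999.99 and 491 with training. The 279 cells held 411 of the 581 Calb1 UMIs of all neurons, or 70.7%, with 1.28% of the cells and 1.64% of the UMIs. Th, for tyrosine hydroxylase, was at 6.99 CPM in n08-PGC-3 and at 1277 in n05-PGC-2, the dopaminergic periglomerular cluster. Calb2, for calretinin, was at 103 ± 31.9 CPM, 17th of the 18 clusters, where n03-GC-1 held 13129 CPM.

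A Calb1 UMI was seen in 117 of the 279 cells, or 41.9% (exact 95% binomial interval 36.1 to 48.0, which covers counting error only). Of n04-Immature cells, which have nearly the same median depth of 1668 UMIs, 11 of 3910 (0.281%) held one. The share was higher in n10-GC-4, at 10 of 234 cells (4.27%) and a median depth of 1727.5 UMIs. In n05-PGC-2 it was 20 of 377 cells (5.31%), at a median of 1931 UMIs. With each cell thinned to 500 UMIs the share in n08-PGC-3 was 25.1%, and in the 202 cells of at least 1000 UMIs it was 47.0%. The share thus changed with depth, and why the other cells held no Calb1 UMI was not tested. Of 10 leading genes, 3 or more were found in 170 of the 279 cells, against at most 1.40% of the cells in any other cluster, and 8 of the 279 cells held none. These 10 genes were picked by their ratio to the next cluster in these same cells, so their rarity elsewhere follows from the choice and is no support for the cluster. With each cell thinned to 500 UMIs, a cell held a mean of 1.51 of them in n08-PGC-3 and 0.162 in n10-GC-4.

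The cells expressed genes of the GABA phenotype of bulb interneurons, at levels that were not high as a set. Of 9 genes of GABA synthesis, release and uptake with a mean of at least 20 CPM over the clusters, 4 lay above the mean of the other 17 (55.3% of all genes). Their median log2 ratio was -0.14 beside 0.08 over all genes. Gad1, which makes GABA, was at 1213 ± 256 CPM, 5th of 18. A Gad1 UMI was found in 78.9% of the cells, beside 25.2% of the sensory neurons n01-OSNs, which are not GABAergic, at median depths of 1704 and 808.5 UMIs, and with each cell thinned to 500 UMIs these shares were 41.6% and 16.1%. Slc32a1, the vesicular GABA transporter, was at 295.5 ± 27.9 CPM, 7th of 18, and Gad2, the other GABA-making enzyme, was lower at 183 ± 65.1 CPM, 10th of 18. Dcx, a microtubule protein of young neurons, was at 104 ± 42.03 CPM, 12th of 18, where n04-Immature held 907 CPM. Mitral and tufted cell markers summed to 727 CPM, above the median of 129 over the other clusters, but 671 of these were Reln, which makes the secreted protein reelin and was 3rd highest in n08-PGC-3.

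Over the 6956 genes with a mean of at least 20 CPM across the 18 clusters, 456 (6.56%) had their highest mean in n08-PGC-3, and 17 (0.244%) were highest there in all 6 libraries. The genes that lead the cluster, ordered by the ratio to the next cluster, are given here by role. The plot of leading genes shows each library beside the next highest cluster.

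**Figure D1:**
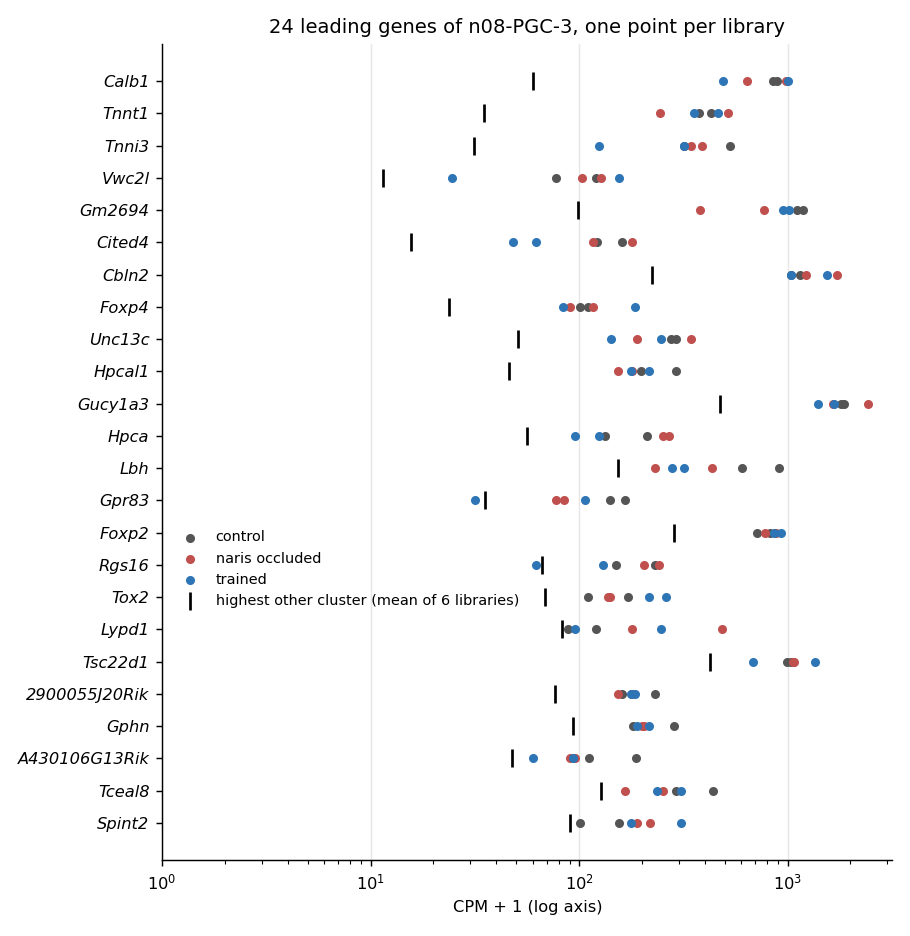
CPM + 1 on a log axis for 24 of the 25 genes with the largest ratio of the n08-PGC-3 mean to the highest other cluster, among genes of at least 100 CPM in n08-PGC-3. Each coloured point is 1 of 6 libraries (grey control, red naris occluded, blue trained) and the black bar is the mean of the highest other cluster; the Calb1 points run from 491 to 999.99 CPM against 58.9 CPM in n10-GC-4.

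Among calcium-handling proteins, Calb1 was joined by the neuronal calcium sensors Hpcal1, Hpca and Ncald, at 202 ± 48.0, 179.7 ± 73.1 and 239 ± 73.1 CPM, each highest in n08-PGC-3 in 6 of 6 libraries. The calcium-binding list as a whole did not follow: 9 of its 26 members with enough counts, Calb1, Hpca and Ncald among them, lay above the mean of the other 17 clusters, where 55.3% of all genes did, and its median log2 ratio was -0.32 beside 0.08 over all genes. Scgn (secretagogin), Necab1 and Necab2 were at 14.2, 18.8 and 7.12 CPM in n08-PGC-3. Pcp4, a regulator of calmodulin, was at 597 CPM, 12th of 18.

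A pair of troponin genes, which in muscle make parts of the calcium switch on the thin filament, was high in these neurons. Tnnt1 (slow skeletal troponin T) was at 429.97 and 373 CPM in controls, 242 and 514 with occlusion, and 353 and 461 with training, and the next cluster, n12-GC-6, was at 34.1 ± 17.4. Tnni3 (cardiac troponin I) was at 529.96 and 318 CPM in controls, 344 and 388 with occlusion, and 318 and 123 with training, against 30.3 ± 53.2 in n16-M/TC-2. The libraries of the 3 conditions overlapped for Tnnt1. For Tnni3 both trained libraries lay below the other 4, the higher of them by less than 1 CPM, and the change against control did not pass the test (log2 -0.73, SE 0.33, adjusted p = 0.976 with edgeR's quasi-likelihood test). The 279 cells held 55.6% of the neurons' Tnnt1 UMIs and 58.2% of the Tnni3 UMIs. Both genes lie on chromosome 7 of mm10, Tnnt1 at chr7:4504569-4515975 and Tnni3 at chr7:4518305-4522718, 2329 bases apart.

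Cerebellins are secreted proteins that bridge neurexins on axon terminals to receptors on the partner cell. Cbln2 was at 1140 and 1032 CPM in controls, 1224 and 1731 with occlusion, and 1035 and 1536 with training, and was found in 78.1% of the cells, beside 0.75% of n01-OSNs; n10-GC-4 followed at 222 ± 132 CPM. Cbln1 was at 304 ± 120 CPM, highest in n08-PGC-3 by its mean and in 4 of 6 libraries, with n17-M/TC-3 next at 223. Cbln4 was at 7.21 CPM. Over the whole adhesion list, Cbln1 and Cbln2 included, 4 of 16 lay above the mean of the other clusters (55.3% of all genes), among them also Lrfn5, a synaptic adhesion protein, at 339 ± 114 CPM, 2nd of 18.

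Gm2694, annotated as a long non-coding RNA gene, was at 1179.9 and 1109 CPM in controls, 765 and 378 with occlusion, and 1012 and 952 with training. The occluded libraries lay below the other 4. The next clusters were n15-M/TC-1 and n17-M/TC-3 at 97.4 ± 75.6 and 95.6 ± 47.0 CPM, which did not differ beyond their spread. Gm2694 (chr8:87472812-87525554) and Cbln1 (chr8:87468853-87472592) are neighbours 219 bases apart.

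The start regions of Tnnt1 and Gm2694 are shown, and each gene is 1 of a neighbouring pair that was high in n08-PGC-3. The windows of Gucy1a3 and Gucy1b3, a further such pair described below, were searched as well. They held 0 matches to the motifs named here and are not printed. The 300-base windows, from 250 bases before to 50 after a RefSeq transcript start, are from GRCm38.p6 (mm10), and capitals mark the only matches on either strand to a forkhead core (TGTTTAC), a cyclic AMP response element (TGACGTCA), a TATA box (TATAAA) or an E-box (CACGTG). The first is chr7:4515926-4516225, minus strand, with 58.3% G and C, and the second chr8:87472866-87473165, plus strand, with 73.7% G and C and 42 CpG dinucleotides. The transcript start used for Gm2694, base 87473116, lies 304 bases inside the span given above for the gene, while that of Tnnt1 is the end of its span.
Tnnt1: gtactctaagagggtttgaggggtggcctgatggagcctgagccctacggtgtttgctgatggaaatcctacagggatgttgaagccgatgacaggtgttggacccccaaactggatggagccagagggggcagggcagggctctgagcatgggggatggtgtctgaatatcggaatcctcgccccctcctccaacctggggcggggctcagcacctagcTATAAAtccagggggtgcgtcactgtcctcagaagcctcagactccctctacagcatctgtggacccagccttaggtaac
Gm2694: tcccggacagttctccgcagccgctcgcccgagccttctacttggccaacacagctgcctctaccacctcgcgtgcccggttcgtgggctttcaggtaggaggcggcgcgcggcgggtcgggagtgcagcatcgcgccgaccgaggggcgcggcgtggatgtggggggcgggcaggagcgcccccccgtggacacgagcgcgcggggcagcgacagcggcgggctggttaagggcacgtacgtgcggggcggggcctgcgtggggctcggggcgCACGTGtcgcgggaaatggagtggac
The Tnnt1 match, TATAAA, starts at base 221 of the window, and 13.6% of 32851 promoter windows hold one. The Gm2694 match, CACGTG, starts at base 275, and 7.15% of windows hold one. The median window held 52.7% G and C. The forkhead core is in 3.65% of windows and the cyclic AMP response element in 1.79%, and neither was found in these 2.

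Nitric oxide acts in neurons largely through soluble guanylate cyclase, a dimer of an alpha and a beta subunit that makes cGMP. The alpha subunit Gucy1a3 (RefSeq symbol Gucy1a1) was the highest of the leading genes, at 1869.9 and 1801 CPM in controls, 1658 and 2433 with occlusion, and 1400.0 and 1658 with training. Every library lay above the n10-GC-4 mean of 471 ± 101. The beta subunit Gucy1b3 (Gucy1b1) was at 362 ± 113 CPM, highest by its mean but only just above n12-GC-6 at 291. The subunit genes lie 17715 bases apart on chromosome 3. Most other genes of the list were low: Nos1, the neuronal nitric oxide synthase, was at 6.95 CPM, the cGMP-degrading Pde5a at 1.75, and the cGMP-dependent kinase genes Prkg1 and Prkg2 gave no UMI in the 279 cells. Pde10a, which degrades cGMP and cyclic AMP, was at 118 ± 96.1 CPM, 3rd of 18. In all, 5 of 10 members lay above the mean of the other clusters, near the 55.3% of all genes, and 5 lay more than 1 log2 unit below it (9.89% of all genes).

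Among regulators of transcription, Foxp2, a forkhead factor, was at 820 and 714 CPM in controls, 778 and 881 with occlusion, and 929 and 859.98 with training, in contrast to 284 ± 88.7 in n10-GC-4 and 100.4 ± 52.9 in n18-EPL-IN. Of its relatives, Foxp4 was at 114 ± 36.8 CPM against 22.9 in the next cluster, and Foxp1 was at 32.5 CPM, 13th of 18. Lbh, a transcriptional cofactor, was at 462 ± 257 and Tsc22d1, a leucine zipper regulator, at 1032 ± 214 CPM. Of 38 interneuron transcription factors with enough counts, 13 were among the 3 highest means in n08-PGC-3 (19.9% of all genes were), 17 lay above the mean of the other clusters (55.3% of all genes), and 15 lay more than 1 log2 unit below it (9.89% of all genes). Nfib, Pbx3 and Tshz1 were each 2nd of 18, at 818, 349 and 628 CPM.

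Among genes of transmitter release, Unc13c, which primes synaptic vesicles, was at 247 ± 73.0 CPM against 49.9 in n10-GC-4, and Dnm3, a dynamin of vesicle retrieval, at 858 ± 101 against 429. Rab3c, a vesicle-bound GTPase, was at 482 ± 79.4 CPM. The list as a whole was not high: 12 of its 31 members with enough counts, Unc13c, Dnm3 and Rab3c among them, lay above the mean of the other clusters (55.3% of all genes), with a median log2 ratio of -0.23 beside 0.08 over all genes. Pcdh10, a homophilic adhesion protein, was highest in 6 of 6 libraries at 622 ± 74.2 CPM. Of receptors, Gpr83 was at 100.3 ± 47.8 CPM. The neurotrophin gene Bdnf was at 154 ± 77.1 CPM. The other leading genes included Vwc2l, a secreted protein, at 100.3 ± 45.4 CPM, Cited4, a transcriptional coactivator, at 114 ± 52.1, and Rgs16, a brake on G protein signalling, at 169 ± 68.9.

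The plot of levels by cluster shows that high levels of Calb1, Cbln2, Gucy1a3 and Foxp2 were followed at a distance by n10-GC-4, while Gad1 was shared with most inhibitory clusters and Calb2 was near its lowest.

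**Figure D2:**
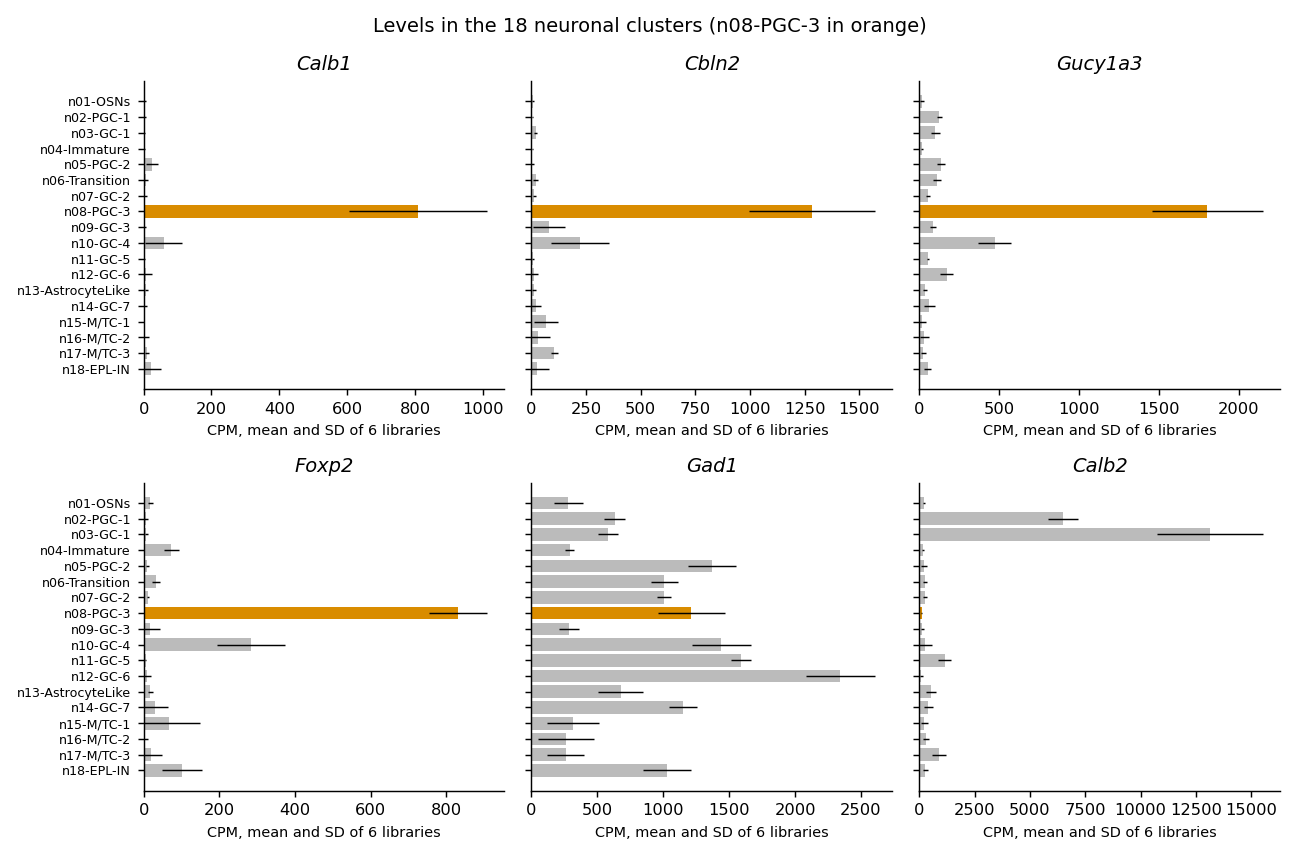
CPM of 6 genes in the 18 neuronal clusters, with bars for the mean and lines for the SD of 6 libraries, n08-PGC-3 in orange. Calb1 stands at 809 CPM in n08-PGC-3 and at 58.9 in n10-GC-4, and Calb2 at 103 in n08-PGC-3 and at 13129 in n03-GC-1.

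Among genes with a mean of at least 100 CPM over the other 17 clusters, Abi3bp, Sst, Ptprd and Fstl5 were among the farthest below that mean, and each was low in some other clusters too. Cartpt, a neuropeptide gene under that level, was also low, at 1.67 CPM against 718 in n09-GC-3. Abi3bp gave 0 UMIs in the 279 cells and was at 758 CPM in n15-M/TC-1, but at 3.76, 4.18 and 6.597 CPM in n05-PGC-2, n02-PGC-1 and n10-GC-4. Ptprd, a receptor phosphatase of synapses, gave 4 UMIs, Fstl5 2 and the somatostatin gene Sst 1. Sst was at 2250 ± 2959 CPM in n18-EPL-IN, and n08-PGC-3 was 11th of 18, with 4 clusters at 0. Of granule cell markers, 1 of 12 lay above the mean of the other clusters, beside 55.3% of all genes, with a median log2 ratio of -1.74 beside 0.08. Glutamate receptor genes had 3 of 17 above it (median -0.81) and neuropeptide and granin genes 3 of 20 (median -2.29).

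By Spearman correlation of log2(mean CPM + 1) over the 6956 genes, the clusters most like n08-PGC-3 were n10-GC-4 (rho 0.842), n03-GC-1 (0.801), n05-PGC-2 (0.791) and n02-PGC-1 (0.787). The points of such a correlation share libraries and highly expressed genes, and it is given as a description. The cluster most like these cells was thus named a granule cell cluster, not either of the other periglomerular clusters.

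Beside n10-GC-4, 30 genes (0.431%) were more than 2-fold higher and 55 (0.791%) more than 2-fold lower in n08-PGC-3 in all 6 libraries. Higher in n08-PGC-3 were Tnnt1, Tnni3, Cbln1, Gm2694, Bdnf and Reln, the last at 671 ± 80.9 CPM against 40.3 ± 63.3. Lower were Pcdh20, Nos1, Gfra2 and Tpbg, a granule cell surface protein (7.12 against 104 CPM).

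Beside the dopaminergic n05-PGC-2, 93 genes (1.34%) were more than 2-fold higher and 131 (1.88%) more than 2-fold lower in all 6 libraries. Cbln2, Foxp2 and Reln were higher in n08-PGC-3, with n05-PGC-2 at 3.64, 9.56 and 13.3 CPM. Lower were Th, Trh, the precursor of thyrotropin-releasing hormone (15.7 against 3881 CPM), Gal for galanin (1.96 against 422 CPM) and Pax6, a transcription factor of dopaminergic periglomerular cells (14.8 against 585 CPM).

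The 279 cells were not uniform. Calb1 and Gm2694, the calbindin gene and the non-coding RNA gene that lead the cluster with about equal levels, were seldom found in the same cell: 94 cells held a Calb1 UMI and none of Gm2694, 87 a Gm2694 UMI and none of Calb1, 23 both and 75 neither. Gm2694 was found in 19.7% of cells with a Calb1 UMI and in 53.7% of cells without one. In the 202 cells of at least 1000 UMIs these shares were 24.2% and 72.0%, in the 247 cells from whole-bulb cluster N12 20.4% and 59.7%, and after thinning to 500 UMIs 7.14% and 28.2%. The share was lower in Calb1 cells in each library but trained replicate 2, where it was 40.0% of 5 cells against 36.4% of the rest.

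This split was chosen after the values were seen, so what follows is a description with no test. The median depths of the Calb1 cells without Gm2694 and of the Gm2694 cells without Calb1 were 1840.5 and 2031 UMIs, and 90 and 80 of them came from cluster N12. Cells with neither were shallower, at 883 UMIs.

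The cells with Calb1 alone were richer in Tnni3, at 752 CPM against 55.8 in the cells with Gm2694 alone, and higher in 6 of 6 libraries. By library Tnni3 in Calb1 cells was at 1087, 828, 843, 572, 606 and 576 CPM, and in Gm2694 cells at 110.4, 103, 36.3, 0, 0 and 0, with no overlap. Cbln2 was at 1534 against 838 CPM, Dnm3 at 1309 against 486, Gpr83 at 154 against 50.3 and Gad1 at 1356 against 1044, each higher in the Calb1 cells of 6 of 6 libraries. Tnnt1 was at 562.5 against 251 CPM, higher in 5 of 6. Gpr83 rests on few UMIs. By library it gave 5, 9, 4, 4, 3 and 1 in Calb1 cells and 3, 2, 1, 1, 2 and 0 in Gm2694 cells. For all genes of this split, trained replicate 2 held only 3 cells with Calb1 alone and 4 with Gm2694 alone.

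The cells with Gm2694 alone were richer in Cbln1, the neighbouring gene, at 586 against 71.1 CPM, and in Unc13c (341 against 130.3), Tsc22d1 (1491 against 539) and Tceal8, a BEX/TCEAL family gene (379.7 against 154), each in 6 of 6 libraries. Lbh (704 against 284 CPM), Tox2 (302 against 88.8), a transcription factor, Bdnf (229 against 88.8) and Vgf, a secreted neuropeptide precursor (302 against 65.1), were also higher there, Lbh, Tox2 and Bdnf in 5 of 6 libraries and Vgf in 4, with 1 library at 0 in both. Reln, at 716 in Calb1 cells and 614 in Gm2694 cells, and Meis2, a transcription factor of olfactory interneurons, at 1824 and 1938, were higher in 3 of 6 libraries each way, and Gucy1a3 was high in both, at 2060.5 and 1698 CPM. Cbln2 thus lay above the n10-GC-4 mean of 222 CPM in both kinds of cell.

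**Figure D3:**
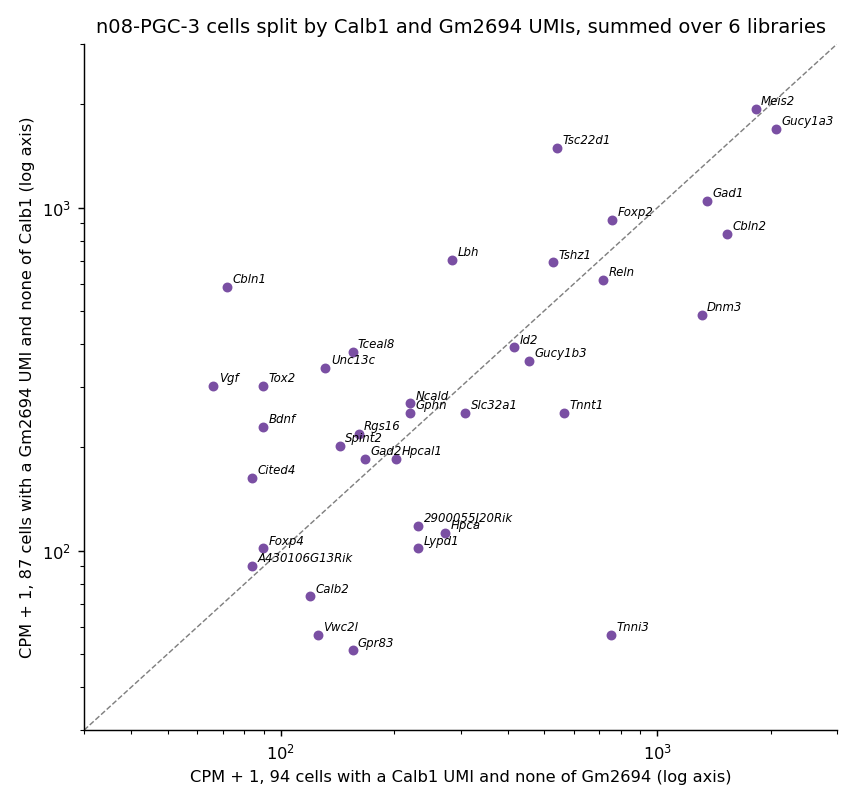
CPM + 1 on log axes in the 94 n08-PGC-3 cells with a Calb1 UMI and none of Gm2694 (x axis) and in the 87 cells with a Gm2694 UMI and none of Calb1 (y axis), each point 1 gene summed over 6 libraries; the dashed line marks equal levels. Tnni3 lies farthest below the line (752 against 55.8 CPM) and Cbln1 farthest above it (71.1 against 586 CPM).

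The study compared conditions to ask how sensory activity alters adult-born neurons. In share of adult-born neurons (12 clusters), n08-PGC-3 made up 1.65% and 2.38% in controls, 1.76% and 2.12% with occlusion, and 1.62% and 0.704% with training. Occluded and control libraries overlapped, and both trained libraries lay below the other 4, trained replicate 1 only just. The log2 change, from edgeR's quasi-likelihood test on cell numbers with Benjamini-Hochberg adjustment over the 12 clusters, was -0.04 (SE 0.35, adjusted p = 0.981) for occlusion, -0.73 (SE 0.365, adjusted p = 0.408) for training against control, and -0.69 (adjusted p = 0.157) for training against occlusion. The exact two-sided permutation test of the shares gave p = 1, 0.333 and 0.333, and 2 against 2 libraries cannot go below 0.333. A chi-square goodness-of-fit test on pooled n08-PGC-3 cells, which treats cells as independent and expects them in proportion to the adult-born neurons of each condition, gave p = 0.00464 over the 3 conditions, p = 0.0034 for training against control and p = 0.00336 for training against occlusion. These p-values cover counting error of cells and not the spread between libraries, so they are no evidence for a change by condition. Without trained replicate 1, which leaves the library of 16 cells alone, the log2 change was -1.50 for training against control and -1.46 against occlusion. Without trained replicate 2 it was -0.30 and -0.26. The size of the change thus depended on which trained library was kept. Such a fit has 1 trained library, and its spread comes from the control and occluded libraries alone.

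**Figure D4:**
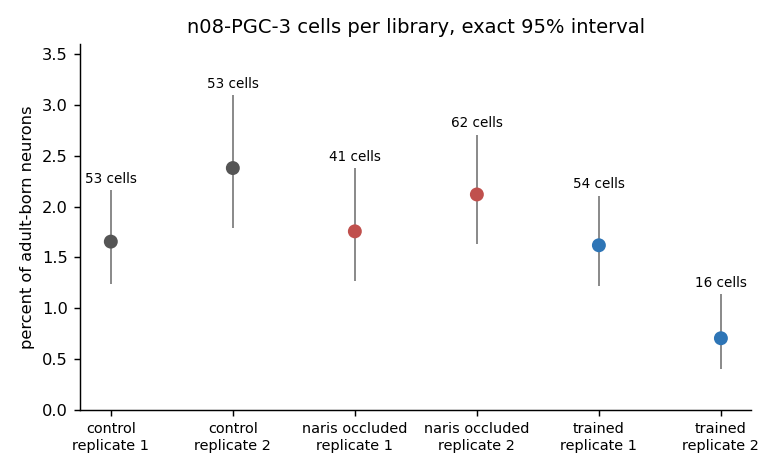
Share of n08-PGC-3 cells in percent of adult-born neurons in each of the 6 libraries, with exact 95% binomial intervals that cover counting error only and the number of cells above each. Trained replicate 2, with 16 cells and 0.704%, is the lowest; the other 5 libraries lie between 1.62% and 2.38%.

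For genes, the n08-PGC-3 counts were summed in each library and 2042 genes were tested with edgeR's quasi-likelihood test, adjusted over all 2042. The p-values measure the spread between libraries of pooled mice. Such sums cannot tell fewer cells of 1 kind within n08-PGC-3 from less RNA per cell.

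With naris occlusion 2 genes (0.0979% of those tested) fell and 0 rose at an adjusted p under 0.05, and 80 (3.92%) had an unadjusted p under 0.05. Vgf was at 219.98 and 264 CPM in controls, 63.8 and 0 with occlusion, and 259 and 276 with training, from 22, 24, 5, 0, 22 and 9 UMIs. The occluded libraries lay below all 4 others, and Vgf fell by 3.02 on the log2 scale against control (SE 0.56, adjusted p = 0.00828). S100a5, a calcium-binding protein made in quantity by olfactory sensory neurons, was at 749.95 and 714 CPM in controls, 281 and 94.4 with occlusion, and 941 and 307 with training. Its occluded libraries were again the lowest, and it fell by 2.03 (SE 0.37, adjusted p = 0.00828). Both calls were lost without occluded replicate 2 (Vgf -1.93, adjusted p = 0.367; S100a5 -1.42, adjusted p = 0.177), and DESeq2 called 0 genes, with 11 at an unadjusted p under 0.05.

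S100a5 was lower with occlusion in all 17 other clusters too, with a median log2 change of -1.67, and in the sensory neurons n01-OSNs it went from 28031 and 25567 CPM in controls to 15027 and 10026 with occlusion. The level in n08-PGC-3 was 0.942% to 4.89% of that in n01-OSNs. The 8 sensory neuron markers, S100a5 among them and 6 of them with a UMI in n08-PGC-3, summed there to 1199.9 and 1395 CPM in controls, 829 and 367 with occlusion, and 1706 and 584 with training. Without S100a5 the other 7 summed to 449.97 and 681 CPM in controls, 548 and 273 with occlusion, and 765 and 276 with training, and the groups overlapped. Their part in the S100a5 result was not tested.

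Vgf was lower with occlusion in 15 of the 17 other clusters and higher in 2, with a median log2 change of -0.87. The clusters where it was higher were n01-OSNs, with few UMIs, and n10-GC-4, the cluster most like n08-PGC-3, where it was at 280.2 and 445 CPM in controls and 886 and 653 with occlusion; the difference between n08-PGC-3 and n10-GC-4 was not tested. Within n08-PGC-3 the cells with Gm2694 and no Calb1 gave 19 and 13 Vgf UMIs in controls (22 and 19 cells), 0 and 0 with occlusion (11 and 11 cells), and 17 and 5 with training (20 and 4 cells).

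The genes next in order did not pass the threshold. Lbh was at 600 and 912 CPM in controls and 434 and 231 with occlusion (log2 -1.23, adjusted p = 0.0868). Gm2694 had log2 -1.05 (adjusted p = 0.157), and Lypd1, a membrane-anchored modulator of nicotinic receptors, was at 119.99 and 87.9 CPM in controls and 179 and 482 with occlusion (log2 1.68, adjusted p = 0.168). Bdnf and Cbln1 had log2 -1.59 and -1.16 (both adjusted p = 0.244). Lbh, Gm2694 and Lypd1 passed in cells of at least 1000 UMIs and without occluded replicate 1 or either trained replicate, and Lbh also without control replicate 1 and in cells from whole-bulb cluster N12, where Vgf and S100a5 passed too.

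Calb1 itself gave no detectable difference, with log2 -0.11 (SE 0.26, adjusted p = 1.00) for occlusion, -0.12 for training and -0.01 between them. Of the calcium-binding list 13 genes were tested, and S100a5 alone passed with occlusion; of 7 GABA synthesis and release genes, 20 transcription factors, 6 adhesion genes and both guanylate cyclase subunits, 0 passed. Only 0.0979% of all 2042 genes passed with occlusion, so a count of 0 in lists of this size is the background. Of 24 activity genes only Vgf, Bdnf and Jund had counts enough to be tested. Fos, an immediate early gene, gave 10 and 8 UMIs in controls, 1 and 5 with occlusion, and 5 and 2 with training (58.8 and 61.4 CPM). Jun, another such gene, went the other way with occlusion, with 4 and 6 UMIs in controls, 8 and 12 with occlusion, and 4 and 2 with training. Neither was tested.

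With training against control 1 gene (0.049%) rose, 0 fell and 94 (4.6%) had an unadjusted p under 0.05. Ptgds, prostaglandin D synthase, was at 369.97 and 351 CPM in controls, 599 and 409 with occlusion, and 953 and 921 with training (log2 1.36, SE 0.27, adjusted p = 0.031). However, 48 of the 81 Ptgds UMIs in trained replicate 1 and 24 of the 30 in trained replicate 2 came from 1 cell each, and among cells from whole-bulb cluster N12 the log2 change was 0.45 and the call was lost. Markers of olfactory ensheathing cells, glia of the outer bulb, summed in n08-PGC-3 to 2199.8 and 1307 CPM in controls, 1670.4 and 2255 with occlusion, and 2271 and 645 with training, and their part was not tested. The Ptgds call was also lost without control replicate 1 (adjusted p = 0.0591), control replicate 2 (0.166) or trained replicate 1 (0.152), and DESeq2 called 0 genes, with 9 at an unadjusted p under 0.05. Below the threshold were Zfp207 (log2 1.86), Lbh (log2 -1.31), both at an adjusted p of 0.134, Hspa5, the chaperone BiP of the endoplasmic reticulum (log2 1.36, adjusted p = 0.1602), and Tceal5 (log2 -1.18, adjusted p = 0.199).

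With training against occlusion 3 genes (0.147%) rose, 0 fell and 102 (5%) had an unadjusted p under 0.05; DESeq2 called 0, with 14 at an unadjusted p under 0.05. Vgf rose by 3.14 on the log2 scale (adjusted p = 0.0187) and S100a5 by 1.98 (adjusted p = 0.0187), both against the same occluded libraries as before. Of the Vgf UMIs, 9 of 22 in trained replicate 1 and 4 of 9 in trained replicate 2 came from 1 cell each. Manf, a secreted factor of endoplasmic reticulum stress, was at 89.99 and 176 CPM in controls, 38.3 and 104.9 with occlusion, and 388 and 246 with training, from 9, 16, 3, 10, 33 and 8 UMIs. Both trained libraries lay above the other 4, and Manf rose by 2.19 against occlusion (SE 0.45, adjusted p = 0.0239). However, 4 of the 8 Manf UMIs in trained replicate 2 came from 1 cell, so its place above the other libraries rests on that cell. In trained replicate 1 the most in 1 cell was 3 of 33. Among the 17 other clusters Manf was higher with training in 14 against occlusion (median log2 change 0.37) and in 15 against control (median 0.60). Vgf and S100a5 were lost without occluded replicate 2 (2.02, adjusted p = 0.414; 1.32, adjusted p = 0.465), Manf without occluded replicate 1 (1.66, adjusted p = 0.269), and all 3 without trained replicate 1 (Vgf 3.08, adjusted p = 0.051; Manf 1.59, adjusted p = 0.688; S100a5 0.66, adjusted p = 0.858).

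**Figure D5:**
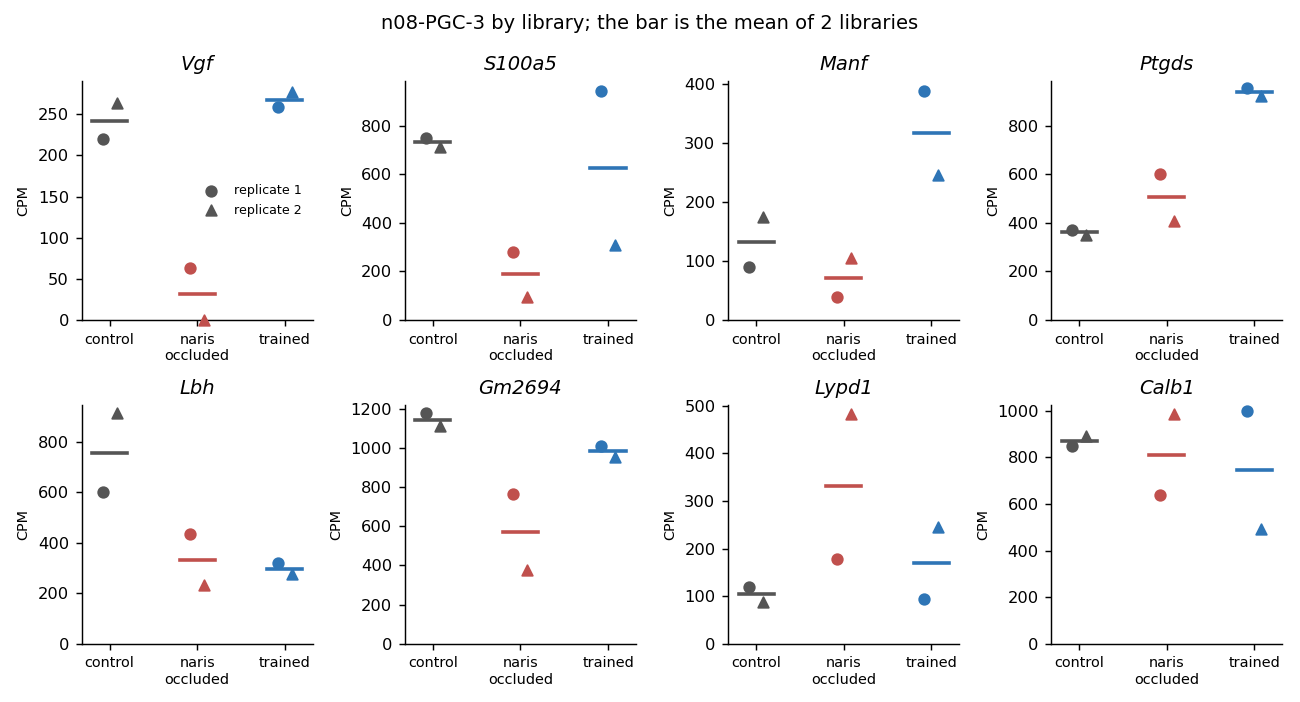
CPM of 8 genes in n08-PGC-3 by library, with circles for replicate 1, triangles for replicate 2 and a bar at the mean of 2 libraries. Vgf and S100a5 are lowest in both occluded libraries, Manf and Ptgds highest in both trained libraries, and the Calb1 libraries of the 3 conditions overlap.

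Whether a condition acted differently on n08-PGC-3 than on the dopaminergic n05-PGC-2 was tested by an interaction term over 3154 genes. In each of the 3 comparisons 0 genes (0%) passed with edgeR. An unadjusted p under 0.05 was found for 75, 95 and 99 of the 3154 genes, in each case a share under 0.05. For Vgf with occlusion the difference was -1.46 (SE 0.82) and for S100a5 -1.13 (SE 0.46) on the log2 scale, both with an adjusted p of 1.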

How the data were processed

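RNA of single cells was measured in 6 libraries (2 per condition) with a 3′ droplet kit. The authors aligned reads to mm10 and made UMI counts with Cell Ranger 2.0.0, clustered cells with Seurat 2.2.1, removed doublets and cells under 200 genes, and deposited raw counts per gene and cell with a cell annotation, whose mitochondrial fraction per cell (percent.mito) the authors computed from the counts. Groups came from the sample titles, libraries from the annotation's library column. No correction for free RNA was made.

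Counts of the n08-PGC-3 cells were summed per library over 18560 genes and divided by their total (CPM). Ratios used a pseudocount of 1 CPM; the background was a mean of 20 CPM over 18 clusters. Conditions were compared with edgeR 4.0.16 (R 4.3.3) with TMM factors and its default filter on low counts (filterByExpr), all 6 libraries in 1 fit, and DESeq2 1.42.0 as an alternative; SEs are the log2 change divided by the root of F and approximate. The scripts were tested on simulated counts. Thinning to 500 UMIs used 1 seed. Promoter windows came from RefSeq tables. Cluster tables and figures used Python 3.11.15 with pandas 2.3.3, NumPy 2.4.6, SciPy 1.17.1 and Matplotlib 3.10.9.

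The text names the 25 genes with the largest ratio to the next cluster at 100 CPM or more, members of written gene lists, and, per comparison, the 3 largest changes past an adjusted p of 0.05 or else the 5 smallest p. These cells and lists were chosen with earlier results of these data known. The split by Calb1 and Gm2694, the genes Sdf2l1 and Htr1a, and the genes named beside n10-GC-4 and n05-PGC-2 were chosen after values were seen. Some genes that these rules name are not reported here. Summed counts of 102 cells differed from their annotated UMI total.

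The alternatives were the replicate block, no count filter, at least 30 counts, DESeq2 and its size factors, cells of at least 1000 UMIs, no mitochondrially encoded genes, other totals, n02-PGC-1 in place of n05-PGC-2, and leaving out each library. The replicate numbers follow the sex of the pool as read from Xist and Y-linked genes; deviations of same-numbered libraries correlated by 0.18, 0.12 and 0.08 over 2042 genes.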

Additional observations from a re-analysis of the deposited data

How the results depend on the processing

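The 25 leading genes were highest in n08-PGC-3 under every alternative run. Genes with their highest mean in n08-PGC-3 numbered 200 of those at 50 CPM or more, and 416 to 478 with 1 library left out. The share of cells with a Calb1 UMI was 25.1% after thinning, 47.0% in cells of at least 1000 UMIs, and 38.2% to 43.6% with 1 library left out. DESeq2 called 0 genes in each comparison of conditions; cells of at least 1000 UMIs gave 6 with occlusion and 3 with training against control, and the latter comparison gave 0 with no count filter and 0 in cells from whole-bulb cluster N12, an alternative chosen after seeing the data. Leaving out 1 library gave 2 to 7, 1 to 6 and 2 to 8 calls in the 3 comparisons, with Xist or Tsix among them where the sexes became unbalanced. The difference from n02-PGC-1 in place of n05-PGC-2 gave 1 call with training against control (Apoe) and 1 against occlusion (Ptgds); for n05-PGC-2 leaving out 1 library gave 0 to 6 and 0 to 5 calls, most without trained replicate 1. The log2 change in share was 0.15 for occlusion over all 18 clusters and 0.0045 from pooled cells, and in pooled cells -0.645 for training against control and -0.65 against occlusion; leaving out 1 library gave -0.29 to 0.23, -1.50 to -0.30 and -1.46 to -0.26. With the replicate block the shares changed by -0.04, -0.74 and -0.70 and 2, 1 and 3 genes were called, the same genes; the numbers follow the sex of the pool by Xist, no label ties them to a shared litter, batch or day, and the block changed no call. No called value changed sign. The cause of these differences was not tested. In trained replicate 2, with 16 cells, 1 UMI is 30.7 CPM, so lower levels could not be resolved there.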

Other observations

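Of 56 nuclear genes of the respiratory chain, 55 lay above the mean of the other 17 clusters in n08-PGC-3 (median log2 ratio 0.37), while 0 of the 13 mitochondrially encoded genes did (median -0.72); over all genes 55.3% did, with a median of 0.08. Of the 56 nuclear genes, however, 2 had their highest mean in n08-PGC-3 (6.56% of all genes did). For 18 of them n08-PGC-3 was among the 3 highest clusters (19.9% of all genes). The CPM totals include the mitochondrially encoded counts. The median mitochondrial share of a cell's counts was 7.92% in n08-PGC-3, close to the 7.36%, 7.64% and 8.26% of n02-PGC-1, n05-PGC-2 and n10-GC-4, where the clusters of highest share were n01-OSNs (39.0%), n13-AstrocyteLike (30.5%) and n14-GC-7 (29.7%). The low level of the mitochondrially encoded genes was thus shared with the most similar clusters.

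Of 11 listed genes of the BEX/TCEAL family, most of them X-linked, 10 had a mean of at least 20 CPM over the clusters. These 10 lay above the mean of the other clusters (median log2 ratio 1.06 beside 0.08 over all genes, of which 55.3% did). Among them 5 (Bex1, Bex4, Tceal5, Tceal8 and Wbp5) had their highest mean in n08-PGC-3 (6.56% of all genes), at 415, 217, 348, 282 and 566 CPM. However, 0 of the 10 were highest in n08-PGC-3 in all 6 libraries (0.244% of all genes). Of 12 clock-related genes 9 lay above the mean of the other clusters, beside 55.3% of all genes. The PAR bZIP factors Dbp, Hlf and Tef, which follow the circadian clock, were highest in n08-PGC-3, at 335 ± 29.7, 193 ± 66.6 and 161 ± 63.0 CPM. Dbp was highest in 6 of 6 libraries (0.244% of all genes). Sdf2l1, a partner of the chaperone Hspa5, gave 1 and 5 UMIs in controls, 1 and 1 with occlusion, and 12 and 5 with training (log2 3.50 for training against occlusion, adjusted p = 0.566 with edgeR). Htr1a, a serotonin receptor, was at 53.8 ± 42.05 CPM in n08-PGC-3 and at 5.86 in the next cluster, n14-GC-7. With 1 UMI worth 10.0 to 30.7 CPM, this level rests on few UMIs per library. Of 5 monoamine and acetylcholine receptor genes with a mean of at least 20 CPM over the clusters, 1 lay above the mean of the other clusters (55.3% of all genes). Of these 5, 3 lay more than 1 log2 unit below it (9.89% of all genes).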
